A study of Mus musculus with 8 samples.

Results

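The insulin-like growth factor (IGF) axis was followed through 10 genes of 19938 measured: the ligand genes Igf1 and Igf2, the receptor genes Igf1r, Igf2r and Ghr, the binding protein genes Igfbp2, Igfbp4, Igfbp5 and Igfbp6, and the protease gene Pappa. They were picked by symbol, and each was read by the 1 probe set annotated with that symbol alone. The set was drawn up with the genotype comparison of these same arrays in view, so the values of the 10 genes are given as a description, without a test. All 10 were measured, since no filter on signal was applied.

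Whole-transcript microarrays had been hybridised with biotin-labelled RNA from mouse cumulus oocyte complexes, each an oocyte with the granulosa cells that surround it. The control group, PR+/-, carried 1 copy of the progesterone receptor gene Pgr interrupted by a lacZ knock-in, and the PRKO group carried the interruption on both copies, a germline change that disrupts both receptor isoforms and is not restricted to the ovary. All animals were prepubertal, aged 21 to 23 days, and had received 5 IU of equine chorionic gonadotropin followed after 44 to 47 h by 5 IU of human chorionic gonadotropin (hCG), with complexes taken 8 h after hCG. Each genotype had 4 arrays, and each array held complexes pooled from 3 of 12 animals, so differences between single animals were not measured. The controls were thus heterozygous rather than wild-type. Values are log2 signals, and differences are PRKO minus PR+/- on that scale, each with the moderated standard error of the limma fit.

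Across the whole table, array medians lay between 5.35 and 5.46. Arrays of the same genotype correlated at 0.988 to 0.990 over all probe sets (Pearson), and arrays of different genotypes at 0.981 to 0.988. Pgr itself fell by 1.09 ± 0.26 (SE, n = 4 against 4; limma adjusted p = 0.0452), although 3 of the 4 PRKO arrays, not all, lay below every PR+/- array. Its adjusted p reached 0.130 when 1 array was left out. The limma threshold, an adjusted p under 0.05, was passed by 582 genes (2.92%), of which 286 were higher and 296 lower, and 3193 genes (16.0%) had an unadjusted p under 0.05. That split was 173 and 303 after quantile normalization and 166 and 303 after centring each array on its median. Of markers of the labelled cells, 8 of 9 for cumulus and granulosa and 10 of 13 for the oocyte had a mean signal above every array median, while Amh, Figla and Mos lay below them. The highest were Inha (12.4) and Inhba (10.7) among cumulus and granulosa markers and Padi6 (7.83) and Bmp15 (7.35) among oocyte markers.

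IGF1 and IGF2 are small secreted hormones that act through the tyrosine kinase IGF1R. IGF2R binds IGF2 and carries it to lysosomes, and the growth hormone receptor GHR drives IGF1 production in the liver. The IGF-binding proteins hold the ligands in the extracellular fluid and limit their access to the receptor, and proteases such as pappalysin (PAPPA) release the ligand by cutting particular binding proteins. In the ovary, IGF1 made by mouse granulosa cells enhances the response of these cells to follicle-stimulating hormone, and cleavage of IGFBP4 by PAPPA is a known step of follicle growth.

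Signals of 3 of the 4 binding protein genes, of Pappa and of Ghr were higher on every PRKO array than on any PR+/- array, by 1.51-fold for Igfbp4 to 2.04-fold for Igfbp6. The ligand genes Igf1 and Igf2, the receptor genes Igf1r and Igf2r and the binding protein gene Igfbp2 overlapped between genotypes. In bulk RNA, a change in the number of cells of a type and a change in RNA per cell cannot be told apart.

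**Figure D1:**
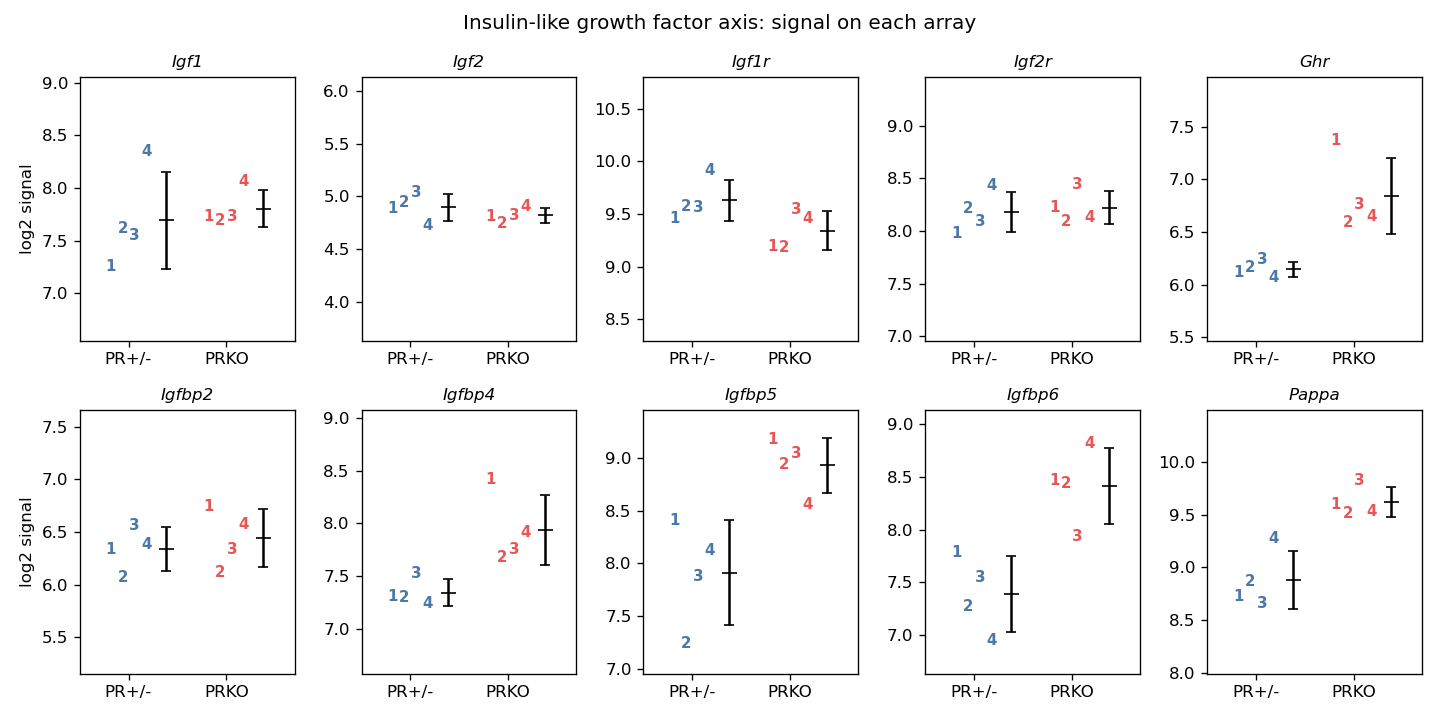
Log2 signal of the 10 genes on each array, with the genotypes side by side; each numeral is 1 array and gives its replicate number, and the black bar is the mean ± SD of 4 arrays. Every panel spans the same log2 height, and the genotypes are fully apart for Ghr, Igfbp4, Igfbp5, Igfbp6 and Pappa, while they overlap for the other 5 genes.

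Igf1, the main ligand of granulosa cells, gave signals of 7.26, 7.62, 7.55 and 8.35 on PR+/- replicates 1 to 4 and of 7.73, 7.69, 7.73 and 8.07 on PRKO replicates 1 to 4. The PRKO arrays fell inside the range of the controls, and replicate 4 was the highest in both genotypes. The mean was 7.69 ± 0.46 in PR+/- and 7.80 ± 0.17 in PRKO (SD, n = 4), a difference of 0.11 ± 0.19 (SE). The value ranged from -0.03 to 0.33 as single arrays were left out, with the highest obtained without PR+/- replicate 4. Igf2, the fetal growth ligand, whose gene is imprinted, gave 4.88, 4.94, 5.03 and 4.73 in PR+/- and 4.81, 4.74, 4.82 and 4.90 in PRKO. All these signals lay under the array medians, the genotypes overlapped, and the difference was -0.08 ± 0.09 (SE). No detection calls were used here, so whether the Igf2 signal exceeds background is not known.

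Igf1r, the signalling receptor of both ligands, gave 9.46, 9.58, 9.57 and 9.92 in PR+/- and 9.19, 9.18, 9.54 and 9.46 in PRKO. PRKO replicates 1 and 2 lay below every control, PRKO replicate 4 lay a little below the lowest control and replicate 3 within the control range. The difference was -0.29 ± 0.12 (SE, n = 4 against 4). Igf2r, the scavenger receptor of IGF2, gave 7.98, 8.21, 8.09 and 8.43 in PR+/- and 8.22, 8.09, 8.44 and 8.12 in PRKO. The genotypes covered nearly the same range, with a difference of 0.04 ± 0.11 (SE).

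Ghr, which encodes the growth hormone receptor, behaved otherwise. Its PR+/- signals were tightly grouped at 6.12, 6.16, 6.24 and 6.07, and its PRKO signals were 7.37, 6.59, 6.76 and 6.64. All PRKO arrays lay above all controls, and PRKO replicate 1 stood well above the other PRKO arrays. The difference was 0.70 ± 0.15 (SE), a fold of 1.62, and was 0.52 without PRKO replicate 1.

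The largest differences of the 10 genes were those of Igfbp6 and Igfbp5, while Igfbp4 and Igfbp2 lay below Pappa and Ghr. Igfbp5 and Igfbp2 are neighbours on chromosome 1 in assembly GRCm38.p6, with Igfbp2 at chr1:72824480-72852474 on the plus strand and Igfbp5 at chr1:72858065-72874865 on the minus strand. The genes point towards each other with 5590 bases and no other annotated gene between them. Igfbp4 lies at chr11:99040005-99052655, and Igfbp6 lies at chr15:102144186-102149512.

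Igfbp5, whose product also binds extracellular matrix, gave 8.41, 7.23, 7.88 and 8.12 in PR+/- and 9.17, 8.94, 9.04 and 8.56 in PRKO. The lowest PRKO array, replicate 4, lay just above the highest control, replicate 1, and the controls were the more scattered group. The mean moved from 7.91 ± 0.50 to 8.93 ± 0.26 (SD, n = 4), a difference of 1.02 ± 0.21 (SE) or 2.02-fold. It was 0.79 without PR+/- replicate 2, the lowest control, and at most 1.18 without any other single array.

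Igfbp2, the convergent neighbour of Igfbp5, gave 6.33, 6.07, 6.57 and 6.38 in PR+/- and 6.75, 6.11, 6.33 and 6.57 in PRKO. The genotypes were interleaved, and the difference was 0.10 ± 0.14 (SE), beside 1.02 for Igfbp5.

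Igfbp6, whose product prefers IGF2 over IGF1, gave 7.78, 7.28, 7.55 and 6.95 in PR+/- and 8.47, 8.44, 7.94 and 8.82 in PRKO. The genotypes were apart, with PRKO replicate 3 nearest to the controls and PRKO replicate 4 highest. The mean moved from 7.39 ± 0.36 to 8.42 ± 0.36 (SD, n = 4), which is a difference of 1.03 ± 0.19 (SE) or 2.04-fold. Leaving out single arrays gave 0.88 to 1.18.

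Igfbp4, the binding protein that PAPPA cleaves, gave 7.31, 7.30, 7.53 and 7.24 in PR+/- and 8.41, 7.68, 7.75 and 7.92 in PRKO. PRKO replicate 1 was the highest, as it was for Ghr, and the other PRKO arrays stood closer to the controls without meeting them. The difference was 0.60 ± 0.14 (SE), a fold of 1.51, and was 0.44 without PRKO replicate 1.

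Pappa, which encodes that protease, lies at chr4:65124174-65357509 and gave 8.72, 8.86, 8.66 and 9.27 in PR+/- and 9.60, 9.51, 9.82 and 9.53 in PRKO. The genotypes were apart, and PR+/- replicate 4 was the control nearest to the PRKO arrays. The mean moved from 8.88 ± 0.28 to 9.62 ± 0.14 (SD, n = 4), a difference of 0.74 ± 0.13 (SE) or 1.67-fold. Transcripts of a binding protein and of the protease that cuts it were both higher in PRKO complexes; protein and cleavage were not measured.

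Counted by the limma threshold of the whole table, 5 of the 10 genes were called higher and 0 lower (6 had an unadjusted p under 0.05, against 16.0% of all genes), where 1.43% of all genes were called higher and 1.48% lower. These were the 5 genes whose genotypes did not overlap, and 6.08% of all genes had every PRKO array above every control, while 4.12% had every PRKO array below. The median difference of the 10 genes was 0.355, and that of all genes was 0.0043. Because this contrast was known when the genes were picked, these counts and medians carry no weight as evidence about the axis.

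**Figure D2:**
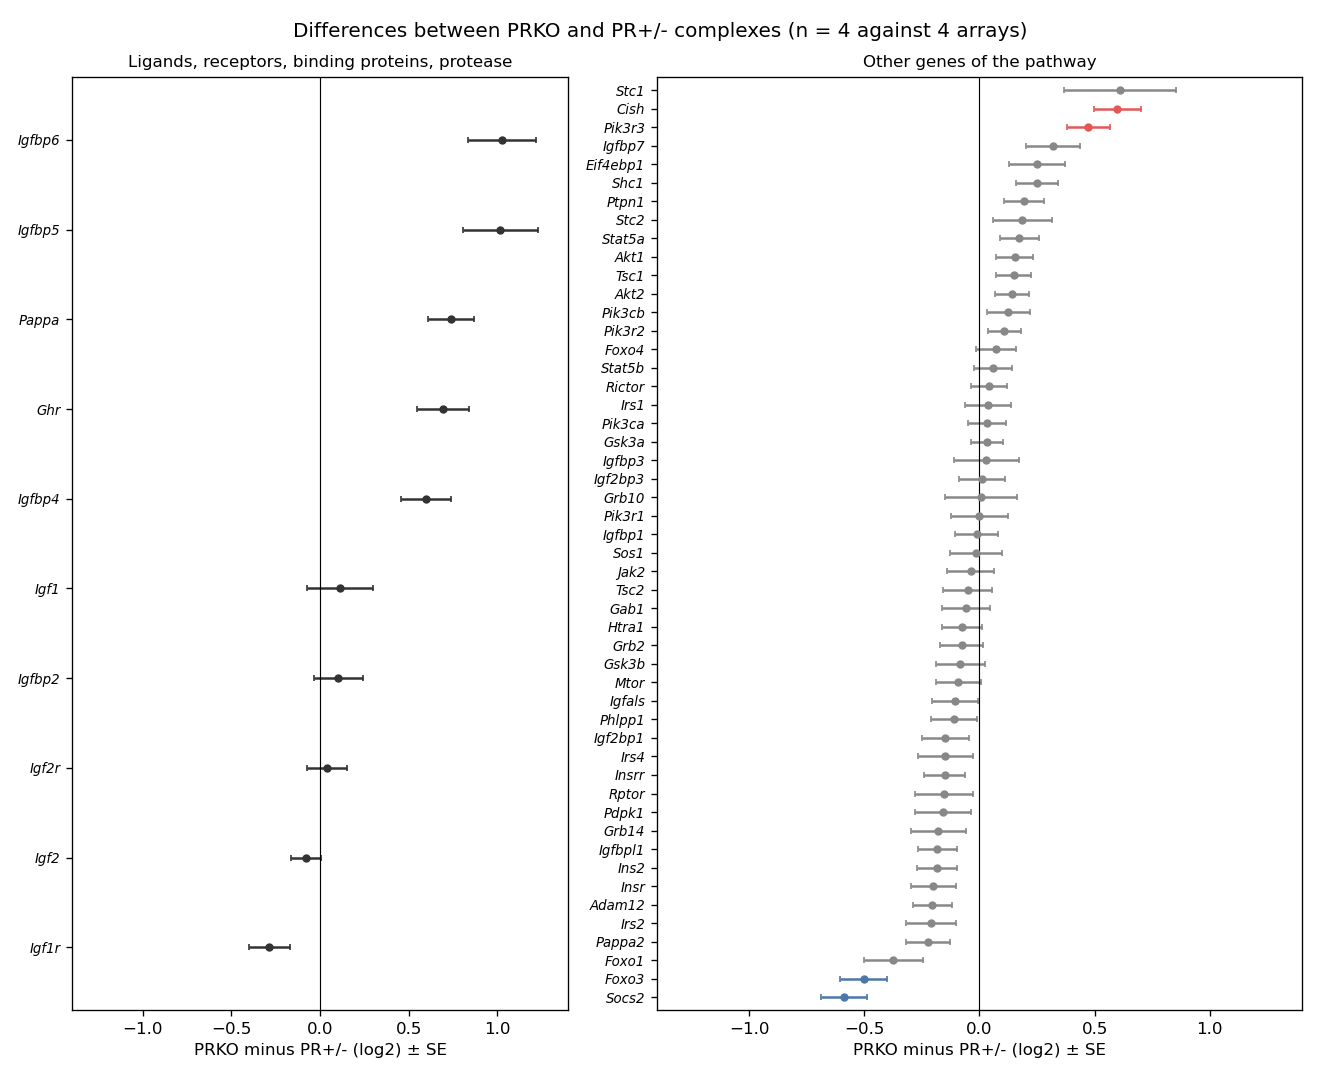
PRKO minus PR+/- differences in log2 units with moderated standard errors as bars (n = 4 against 4 arrays), for the 10 axis genes on the left and for 50 other genes of the pathway on the right. On the right, red marks genes called higher and blue genes called lower at a limma adjusted p of 0.05, and grey marks the rest; on the left, 5 genes lie between 0.60 and 1.03 and the other 5 between -0.29 and 0.11.

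The arrays of one genotype did not order the genes alike. PRKO replicate 1 was the highest PRKO array for Ghr, Igfbp2, Igfbp4 and Igfbp5, and PRKO replicate 2 was the lowest for 8 of the 10 genes. Among controls, replicate 4 was the highest for Igf1, Igf1r, Igf2r and Pappa and the lowest for Igf2, Ghr, Igfbp4 and Igfbp6. That control array also had the highest mean of the 9 measured cumulus and granulosa markers (8.99, against 8.43 to 8.62 on the other controls) and of the 13 oocyte markers (6.81, against 6.01 to 6.53). The part of these markers in the values of Igf1, Igf1r, Igf2r and Pappa was not tested.

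Connective tissue cells also express several of these binding proteins, so markers of theca and stroma were set beside them. Of 11 measured markers, 10 had positive differences (51.3% of all genes did) and 0 passed in limma, while 5 had an unadjusted p under 0.05, where 16.0% of all genes did. The exception in sign was Cyp17a1, an enzyme of theca cells, at -0.08 ± 0.31 (SE, limma adjusted p = 0.929), and the theca gene Insl3 was not measured. Acta2, a smooth muscle actin with the highest signal of the list, differed by 0.47 ± 0.20 (SE, limma adjusted p = 0.280), and Col1a1, a collagen chain, by 0.11 ± 0.11 (0.691). Tagln was the only marker of the list with its genotypes apart, PRKO above, as 6.08% of all genes were. Its difference was 0.45 ± 0.12 (SE, limma adjusted p = 0.0834). The median difference of the 11 markers was 0.241, beside 0.0043 for all genes. The summed level of the list ran from 62.1 to 65.5 in PR+/- and from 63.2 to 69.4 in PRKO (sum of log2 signals per array). No marker was at 0, but the lowest value of the whole table was 1.19, so this does not show detection. Of the 11 markers, 2 had a mean signal below every array median. PRKO replicate 1, the highest PRKO array for Ghr, Igfbp2, Igfbp4 and Igfbp5, had the highest marker mean, at 6.30. PRKO replicate 2 had the lowest of its genotype, at 5.75, below the 5.95 and 5.83 of PR+/- replicates 3 and 4.

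On that PRKO array with the lowest stromal marker mean, Igfbp6 lay 0.66, Igfbp5 0.53, Ghr 0.36, Pappa 0.24 and Igfbp4 0.15 above the highest control. For these genes every PRKO array lay above every control, so only the size of the gap, not its sign, could vary. Igf1, Igf2, Igf1r, Igf2r and Igfbp2 lay below their highest control on that array. With the marker mean as a covariate in limma, the differences were 0.99 ± 0.27 (SE) for Igfbp5, 0.93 ± 0.24 for Igfbp6 and 0.75 ± 0.16 for Pappa, close to those without it. They were smaller for Ghr, at 0.48 ± 0.15, and for Igfbp4, at 0.34 ± 0.12, and Igfbp2 went to -0.18 ± 0.10. In that fit 0 of the 10 genes passed the threshold in limma, and 261 genes of the whole table did.

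Of 6 endothelial markers, Kdr, a receptor of vascular endothelial growth factor, rose by 0.80 ± 0.15 (SE, limma adjusted p = 0.0126, and 0.0508 and 0.0512 without PR+/- or PRKO replicate 3). The others did not pass, including Cdh5, the endothelial cadherin, at -0.29 ± 0.14 (adjusted p = 0.346, and 0.0455 without PRKO replicate 1). The mean of that list was 4.78 to 4.90 in PR+/- and 4.92 to 5.15 in PRKO, and its part in the axis values was not tested. Kdr was the only marker of the list with its genotypes apart, and 4 of the 6 had a mean signal below every array median. Summed log2 signals of this list were 28.6 to 29.4 in PR+/- and 29.5 to 30.9 in PRKO, with 0 markers at 0, as no value of the table was. Of 9 cumulus and granulosa, 13 oocyte, 7 leukocyte and 2 erythrocyte markers 0 passed in limma. An unadjusted p under 0.05 was reached by 3, 0, 0 and 0 of them, and by 16.0% of all genes. Lowest in limma adjusted p among the cumulus and granulosa markers were Amhr2 at 0.45 ± 0.13 (SE, 0.0937), Nr5a2 at -0.30 ± 0.10 (0.149) and Foxl2 at -0.33 ± 0.11 (0.175). For Foxl2 every PRKO array lay below every control, as for 4.12% of all genes. Among the highest signals of the last lists were Cd68 (5.74) and Csf1r (5.03) for leukocytes and Slc4a1 (5.35) and Alas2 (5.16) for erythrocytes.

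**Figure D3:**
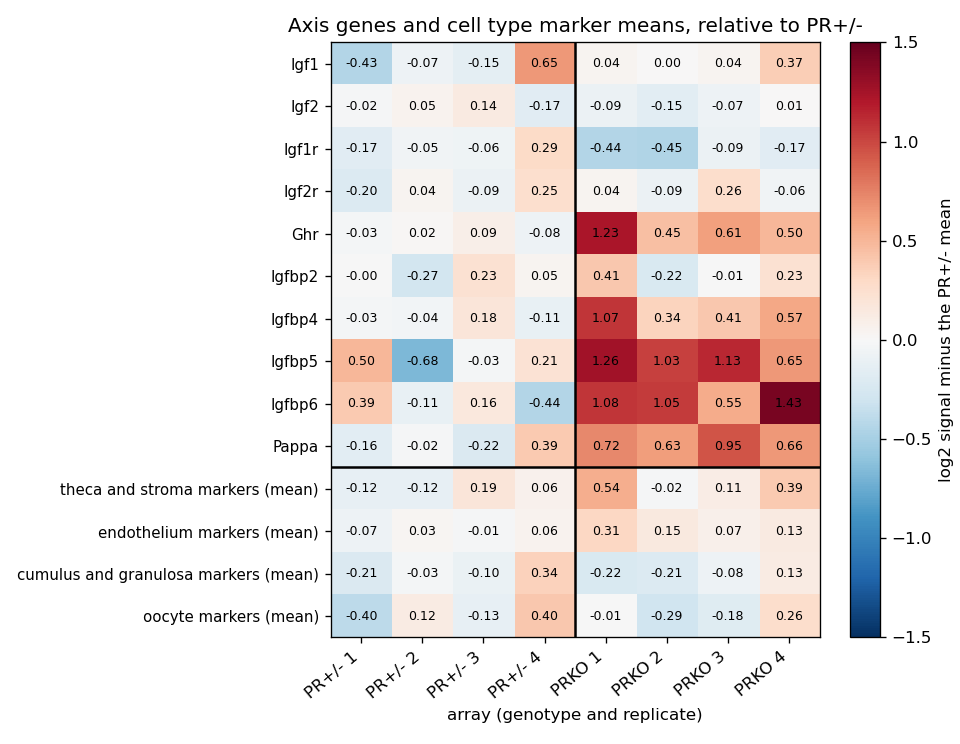
Log2 signal minus the PR+/- mean on each of the 8 arrays (columns), for the 10 axis genes (upper rows) and for the means of 4 cell type marker lists (lower rows); red is above and blue below the control mean. PRKO replicate 1 is deepest red for Ghr, Igfbp2, Igfbp4 and Igfbp5 and has the highest theca and stroma mean. Ghr, Igfbp4, Igfbp5, Igfbp6 and Pappa are red on all 4 PRKO arrays.

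The rest of the pathway was read from a list of 56 other genes, of which 50 were measured. In limma 2 rose, 2 fell and 46 did not pass, beside 1.43% higher and 1.48% lower among all genes, and the median difference was -0.0137. An unadjusted p under 0.05 was reached by 12 of the 50 (24.0%), against 16.0% of all genes. The 4 that passed belong to growth hormone receptor feedback and to the phosphoinositide 3-kinase (PI3K) and AKT arm through which IGF1R signals.

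Of 6 genes of growth hormone receptor signalling, 1 fell, 1 rose and 4 did not pass, and the pair that passed are both feedback inhibitors. Socs2, an inhibitor of growth hormone receptor signalling that the receptor itself induces through STAT5, gave 10.41, 10.34, 10.11 and 10.53 in PR+/- and 9.63, 9.77, 9.73 and 9.90 in PRKO. It fell by 0.59 ± 0.10 (SE), with a limma adjusted p of 0.00872. Cish, a related inhibitor, gave 5.61, 5.81, 5.66 and 5.37 in PR+/- and 6.38, 6.19, 6.15 and 6.13 in PRKO. It rose by 0.60 ± 0.10 (SE, limma adjusted p = 0.00806), and for both genes the genotypes were apart, where 10.2% of all genes had genotypes that did not overlap. Both calls held without any single array (adjusted p at most 0.0340 for Socs2 and 0.0271 for Cish). When the mean of theca and stroma markers entered the fit, adjusted p was 0.0757 for Socs2 and 0.0601 for Cish. The kinase gene Jak2 and the factor genes Stat5a and Stat5b, which act between the receptor and these inhibitors, did not pass, with differences of -0.04 ± 0.10, 0.17 ± 0.08 and 0.06 ± 0.08 (SE).

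In the PI3K-AKT arm 1 of 20 measured genes rose and 1 fell. Pik3r3, a regulatory subunit of PI3K, gave 6.99, 7.13, 7.13 and 7.25 in PR+/- and 7.54, 7.69, 7.74 and 7.42 in PRKO. It rose by 0.47 ± 0.09 (SE, limma adjusted p = 0.0195). Foxo3, a transcription factor that AKT keeps out of the nucleus, gave 8.42, 8.15, 8.27 and 7.96 in PR+/- and 7.78, 7.73, 7.70 and 7.59 in PRKO. It fell by 0.50 ± 0.10 (SE, limma adjusted p = 0.0208), with all PRKO arrays under all controls. Both calls ended when certain arrays were left out: adjusted p was 0.0513 to 0.0709 without PR+/- replicate 1, 2 or 3 or PRKO replicate 2 or 3 for Pik3r3, and 0.0534 to 0.0706 without PR+/- replicate 1 or 3 or PRKO replicate 2, 3 or 4 for Foxo3. With the stromal covariate they were 0.0529 and 0.110. Foxo1, the related factor of granulosa cells, had a difference of -0.37 ± 0.13 (limma adjusted p = 0.164).

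**Figure D4:**
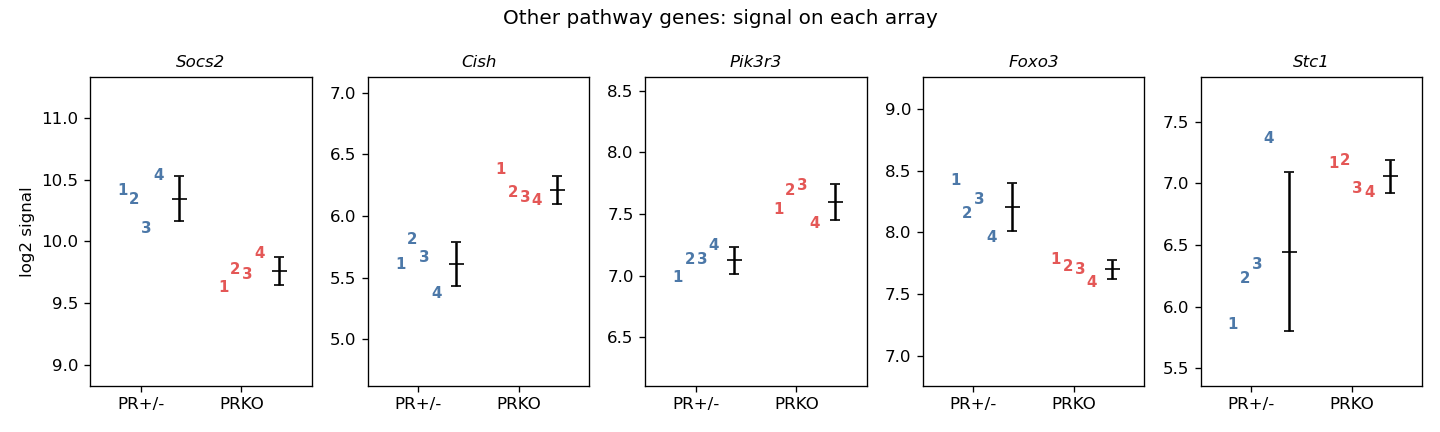
Log2 signal of Socs2, Cish, Pik3r3, Foxo3 and Stc1 on each array, with the numeral giving the replicate and the black bar the mean ± SD of 4 arrays. The genotypes are apart for the first 4 genes, and for Stc1 the control array numbered 4 lies above all PRKO arrays while the other 3 controls lie below them.

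Among the 5 genes for proteases of binding proteins and their inhibitors 0 passed in limma, and 3 had an unadjusted p under 0.05 (16.0% of all genes did). Stc1 encodes stanniocalcin 1, which inhibits PAPPA, and gave 5.85, 6.23, 6.34 and 7.37 in PR+/- and 7.16, 7.19, 6.96 and 6.92 in PRKO. One control, replicate 4, exceeded all PRKO arrays. The difference was 0.61 ± 0.24 (SE, limma adjusted p = 0.240). Leaving out single arrays gave 0.41 to 0.92, with limma adjusted p from 0.00202 to 0.452. The largest difference, 0.92 ± 0.12, and the lowest adjusted p were those without that control. Pappa2, a second pappalysin, had a difference of -0.22 ± 0.09 (limma adjusted p = 0.270).

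Of the 5 other binding protein genes 0 passed in limma, and 2 had an unadjusted p under 0.05. Igfbp7, a binding protein of low IGF affinity, had a difference of 0.32 ± 0.12 (SE, limma adjusted p = 0.198), and Igfbpl1 was at -0.18 ± 0.08 (0.310). Igfbp3, the main carrier in blood, was at 0.03 ± 0.14. The 3 measured insulin and insulin receptor family genes had negative differences and 0 passed in limma (0 with an unadjusted p under 0.05), with Insr, the insulin receptor, at -0.20 ± 0.10 (adjusted p = 0.359) and Ins2, an insulin gene, at -0.18 ± 0.09 (0.331). Of 9 receptor adaptor genes 0 passed in limma and 1 had an unadjusted p under 0.05: Shc1 was at 0.25 ± 0.09 (adjusted p = 0.204) and Irs2, a docking protein of the insulin and IGF1 receptors, at -0.21 ± 0.11 (0.378). The mRNA-binding protein genes Igf2bp1 and Igf2bp3 were at -0.15 ± 0.10 and 0.01 ± 0.10, and neither passed (0 with an unadjusted p under 0.05).

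For the 3 axis genes with the largest spread over the 8 arrays, the most similar profiles were sought among 9969 genes at or above the median signal. Likeness was the root mean square distance between profiles centred on each gene's own mean, over all 8 arrays, and it includes the genotype difference. Nearest to Igfbp5 were Plat, the tissue plasminogen activator (0.291 log2 units), Nuak1, a kinase (0.293), and Rpp25 (0.297). Igfbp6 was closest to P3h2, a collagen prolyl hydroxylase (0.215), Cmtm5 (0.218) and Sema3d, a secreted guidance factor (0.251). For Pappa the nearest genes were the imprinted Peg10 (0.119), Gcnt4, a glycosyltransferase (0.144), and Hsd17b7, an enzyme of cholesterol synthesis (0.148). The nearest axis gene was Pappa for Igfbp5 (0.397), Igfbp4 for Igfbp6 (0.385) and Ghr for Pappa (0.308). These are minima over the few other axis genes, and the distances above are the smallest among 9969 genes. Larger values for the axis genes therefore do not show that they vary apart.

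To set sequence beside these values, the 250 bases before the annotated starts of the binding protein genes are shown for the convergent pair Igfbp2 and Igfbp5 and for Igfbp4 and Igfbp6, which like Igfbp5 were higher in PRKO. They are RefSeq promoter sequences of GRCm38.p6, 5′ to 3′ on the gene's strand, and capitals mark the steroid receptor motif AGAACA or the motif TATAAA on either strand. For Igfbp2 the first of 2 annotated starts is shown. The Igfbp4 window ends at a transcript start at base 99041244, which lies 1239 bases inside the gene interval given above.
Igfbp2, chr1:72824230-72824479, plus strand: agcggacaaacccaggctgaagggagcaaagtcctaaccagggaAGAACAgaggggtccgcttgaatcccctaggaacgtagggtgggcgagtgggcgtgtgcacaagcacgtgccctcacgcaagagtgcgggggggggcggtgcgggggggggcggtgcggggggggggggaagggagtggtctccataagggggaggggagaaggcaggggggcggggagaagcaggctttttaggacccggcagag
Igfbp5, chr1:72874866-72875115, minus strand: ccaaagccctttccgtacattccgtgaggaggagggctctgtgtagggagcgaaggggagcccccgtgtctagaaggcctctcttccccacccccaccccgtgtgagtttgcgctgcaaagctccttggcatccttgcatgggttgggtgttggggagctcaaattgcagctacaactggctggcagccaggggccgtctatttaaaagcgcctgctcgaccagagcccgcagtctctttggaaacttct
Igfbp4, chr11:99040994-99041243, plus strand: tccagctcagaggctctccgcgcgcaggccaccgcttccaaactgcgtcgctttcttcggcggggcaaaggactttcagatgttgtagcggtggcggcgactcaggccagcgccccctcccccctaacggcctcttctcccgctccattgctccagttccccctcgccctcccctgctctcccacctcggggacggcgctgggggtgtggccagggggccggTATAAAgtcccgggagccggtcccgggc
Igfbp6, chr15:102143936-102144185, plus strand: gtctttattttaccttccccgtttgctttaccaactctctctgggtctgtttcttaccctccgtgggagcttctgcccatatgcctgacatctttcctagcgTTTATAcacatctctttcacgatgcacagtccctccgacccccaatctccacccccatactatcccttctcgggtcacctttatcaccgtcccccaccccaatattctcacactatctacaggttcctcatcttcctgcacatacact
AGAACA is the core that progesterone, glucocorticoid and androgen receptors recognise, and searched on both strands (AGAACA or TGTTCT) it occurred in 16.1% of 32851 windows of this length. Of 14 windows for 9 of the 10 axis genes, 2 held it: the window of Igfbp2 shown above, 206 bases before the start, and 1 of 4 windows of Igf2, 85 bases before the start. Neither gene was among the 5 that were higher in PRKO, but Pappa, 1 of those 5, had no window to search. With the motif in 16.1% of all windows, its absence from the few windows of the other higher genes carries no weight. The palindrome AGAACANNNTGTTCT was in 0 of the 14 windows and in 3 of all windows (0.00913%). TATAAA (or TTTATA) was in 3 of the 14 and in 12.4% of all windows, and in Igfbp4 it began 28 bases before that internal transcript start. No overlap between the motifs was found in these windows, and a match or its absence in this stretch is a description of the letters, not of receptor binding.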

How the data were processed

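The authors deposited 1 table of log2 signals for 35556 probe sets on 8 arrays, with no missing values. Per the submitters' processing notes it was made in Partek; the version and the steps of background correction and normalization are not stated there. The values, from 1.19 to 14.1, set the log base. Of the probe sets, 21789 carried exactly 1 gene symbol and were tested, while 1621 carried several and 12146 none. A gene was read by its probe set of highest mean signal. Differences came from limma 3.58.1 in R 4.3.3 (lmFit and eBayes, two-sided, Benjamini-Hochberg over all tested probe sets, threshold 0.05), without a block. All 10 genes matched the RefSeq table of GRCm38.p6, and 9, all but Pappa, had promoter windows.

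The members and lists were chosen with earlier results of these data known. Named were the 10 genes, Pgr, list genes past the threshold, the 2 largest differences of each pathway list, the 2 highest signals of each marker list and the 3 nearest profiles of 3 genes. Jak2, Stat5a, Stat5b, Igfbp3, Cyp17a1, Tagln, Amhr2, Nr5a2 and Foxl2 were added after their values were seen. Alternatives were a replicate block, quantile normalization, centring, a filter on signal, trend and robust moderation, array weights, testing every probe set, averaging a gene's probe sets, a stromal covariate and leaving out each array. The fit was also run on simulated data with independent noise for each probe set. That cannot show how it performs where many genes shift together on an array. Plots used Python 3.11.15 and matplotlib 3.10.9. The number of arrays limits the precision.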

Additional observations from a re-analysis of the deposited data

Results flagged for a closer look

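Of 104 groups of 4 arrays examined, 2 had an array far from the others by Dixon's test, and chance flags about 1 in 20 groups. Igf1 was 8.07 on PRKO replicate 4, against 7.69 to 7.73 on the other PRKO arrays. Peg10 was 9.51 on PR+/- replicate 4, against 8.96 to 9.02 on the other controls.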

How the results depend on the processing

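The signs of the differences of Ghr, Igfbp4, Igfbp5, Igfbp6 and Pappa held in all 17 alternatives, as did those of Socs2, Cish, Pik3r3 and Foxo3, while Igf1 and Igf2r each kept their sign in 15 and Igfbp2 in 16. The count of 582 genes was 206 when all probe sets were tested, 261 with the theca and stroma covariate, and 301 to 532 with 1 array left out. Of the 10 axis genes 5 were called, against 0 with all probe sets tested, 0 with that covariate (there the standard errors of Igfbp5, Igfbp6 and Pappa were wider and the differences of Ghr and Igfbp4 smaller) and 2 to 4 with 1 array left out: Igfbp6 and Pappa stayed called whichever array was left out, the Ghr call ended without any 1 PR+/- replicate or PRKO replicate 3, the Igfbp5 call without PR+/- replicate 3 or PRKO replicate 1, 2 or 3, and the Igfbp4 call without any 1 array other than PRKO replicate 1 or 2. After quantile normalization, after centring on array medians and with array weights 4 of the 10 were called, each time without Igfbp4. Because the 10 axis genes were picked with this contrast known, whether their calls held carries no weight as evidence about the axis. Of the 50 other pathway genes 4 were called, against 2 with all probe sets, 0 with the covariate and 2 to 5 with 1 array left out. The labels tie no shared litter or day to a replicate number, and the deviations of same-numbered arrays correlated at 0.121, 0.0801, 0.145 and 0.153, with PR+/- replicate 2 closest to PRKO replicate 4 (0.216), so the numbers were not treated as pairs, though weak pairing cannot be told from these values; with the replicate number as a block 671 genes and the same 5 axis genes were called. Differences near 0 changed sign: with the covariate Bmp15 was at -0.085, Col1a1 at -0.089, Igf2bp3 at -0.12 and Inhba at -0.017, and Igf2bp3 was at -0.015 after centring and -0.016 with array weights. With single arrays left out Bmp15 ranged from -0.13 to 0.44, Igf2bp3 from -0.060 to 0.087, Inhba from -0.11 to 0.40 and Padi6 from -0.31 to 0.088. Where not stated, the cause was not tested. Igf2 has no value under the signal filter, which its mean does not pass. The background level of these arrays is not known, which limits what the low signals of Igf2, Pappa2 and Ins2 show.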
